A study of Canis lupus familiaris with 36 samples.

Results

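Integrin subunits and other leukocyte adhesion genes were followed across canine lymphomas. The genes were 5 integrin alpha subunits (ITGA4, ITGA5, ITGA6, ITGAE and ITGAL), 3 integrin beta subunits (ITGB1, ITGB2 and ITGB7), the hyaluronan receptor CD44 and the integrin ligand ICAM1. They were chosen by name, and each was read from its brightest probe set on average. These 10 genes were taken from 15115 genes with a probe set of 1 symbol, and all 10 were among the 7500 genes that passed the filter on low values and were tested. The 10 genes had 25 of the 43035 probe sets on the array. Levels are log2 intensities, and a level of 4 (an intensity of 16) was taken as the least that counts as measured, called the minimum below. Probe sets differ in how brightly they report a transcript, so levels were compared between dogs for 1 gene and never between genes.

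Tumour tissue from 35 dogs was measured on 36 Affymetrix canine expression arrays, after mechanical dissociation and filtering of the tumours. The labels named no treatment or allele, and the groups were spontaneous tumours that differed in phenotype, subtype and grade. B-phenotype tumours came from 10 dogs with diffuse large B-cell lymphoma (DLBCL, high grade), 5 with marginal zone lymphoma (MZL, low grade) and 2 labelled BL (high grade). T-phenotype tumours came from 4 dogs labelled LBT (high grade), 4 with peripheral T-cell lymphoma (PTCL, 3 of high and 1 of intermediate grade) and 9 with T-zone lymphoma (TZL, low grade). The age at diagnosis, whose unit the labels did not give, ran from 4 to 14 in DLBCL, 4 to 10 in MZL, 2 to 5 in BL, 3 to 10 in LBT, 6 to 14 in PTCL and 7 to 11 in TZL. Of the 34 compared dogs, the Golden Retrievers numbered 6 in DLBCL, 4 in MZL, 1 in BL, 3 in LBT, 1 in PTCL and 8 in TZL. The others were Rottweilers, Boxers, Labradors, Mastiffs, a German Shepherd and a Bichon Frise. The PTCL dogs other than the Golden Retriever were Boxers and the Bichon Frise. Males numbered 4 in DLBCL, 1 in MZL, 1 in BL, 1 in LBT, 2 in PTCL and 6 in TZL. A DLBCL case with 2 arrays was averaged and counted as 1 dog, and a further dog labelled NBNT, neither T nor B by its label, entered no comparison. Grade followed subtype, so grade and subtype cannot be told apart within a phenotype.

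Integrins are receptors made of 1 alpha and 1 beta subunit that hold cells to the extracellular matrix and to other cells. ITGA4 joins ITGB1 to bind fibronectin and VCAM1 on inflamed endothelium, or ITGB7 to bind the gut addressin MAdCAM, and ITGAE joins ITGB7 to bind E-cadherin on epithelium. ITGA5 and ITGA6 join ITGB1 as the classical fibronectin receptor and as a laminin receptor. ITGAL joins ITGB2 to bind ICAM1, the contact that steadies lymphocytes on endothelium and on antigen-presenting cells, and CD44 binds hyaluronan.

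The arrays were alike in overall brightness, with medians between 5.57 and 6.13 on the linear intensity scale. A set of 6 arrays stood apart by an actin 3' control of 14.0 to 14.4 (log2), against 10.8 to 12.5 on the other 30 arrays. They came from TZL replicates 1, 2 and 7, DLBCL replicates 4 and 9 and PTCL replicate 3. Within subtypes, limma called 1677 of the 7500 genes (22.4%) between these arrays and the rest, among them CD44, higher in the set by 1.59 (adjusted p = 0.0114), and ITGAE, higher by 0.98 (adjusted p = 0.00371). As groups, the phenotype labels matched the lineage markers. All 8 T-cell markers tested were lower and all 6 B-cell markers tested were higher in B than in T tumours. Of all genes, 46.5% were called between these groups. The summed intensity of the T-cell list ran from 1495 to 6848 in B and from 6128 to 28806 in T tumours. The lowest T value, in PTCL replicate 4, lay within the B range. LBT tumours had the lowest median sum of B-cell markers, 134, with a range of 39.5 to 2023, and also the lowest median for macrophages, 177, with a range of 105 to 489. In bulk tissue, fewer cells of a type and less RNA per cell cannot be told apart, and for each gene below the part played by the mixture of cells was not tested.

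The adhesion genes differed in which subtypes they separated. A difference among the 6 subtypes was called for 8 of the 10 genes by limma's moderated F test, where 56.8% of all genes tested were called, and the exceptions were ITGAE and ITGB2. Between phenotypes, 5 of the 10 genes were called, all lower in B tumours (ITGA5, ITGA6, ITGAL, ITGB7 and CD44), where 46.5% of all genes were called and 22.3% were called lower. ITGA5 and ITGAL passed the filter on low values only through T tumours, so their calls between phenotypes are a description. ITGAL passed it only with the LBT dogs, so its calls for LBT are a description too. The median difference over the 10 genes was -0.86, against 0.03 over all genes tested. Within the T tumours, 5 genes separated LBT from TZL, with ITGA4, ITGA6 and ITGAL higher and ITGB1 and ICAM1 lower in LBT, where 30.1% of all genes were called, 17.8% higher and 12.4% lower. PTCL differed from TZL in 2 genes, ITGA6 higher and ITGB1 lower, where 13.7% of all genes were called, 7.6% higher and 6.07% lower. Between the low-grade tumours, 4 genes were called, all lower in MZL than in TZL (ITGA5, ITGB2, ITGB7 and CD44), where 27.5% of all genes were called and 12.3% were called lower. DLBCL set against LBT, PTCL and TZL gave 6, 3 and 5 called genes, where 33.7%, 20.9% and 46.9% of all genes were called. The counts over 10 genes stand beside the shares of all genes and were not tested against them.

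**Figure D1:**
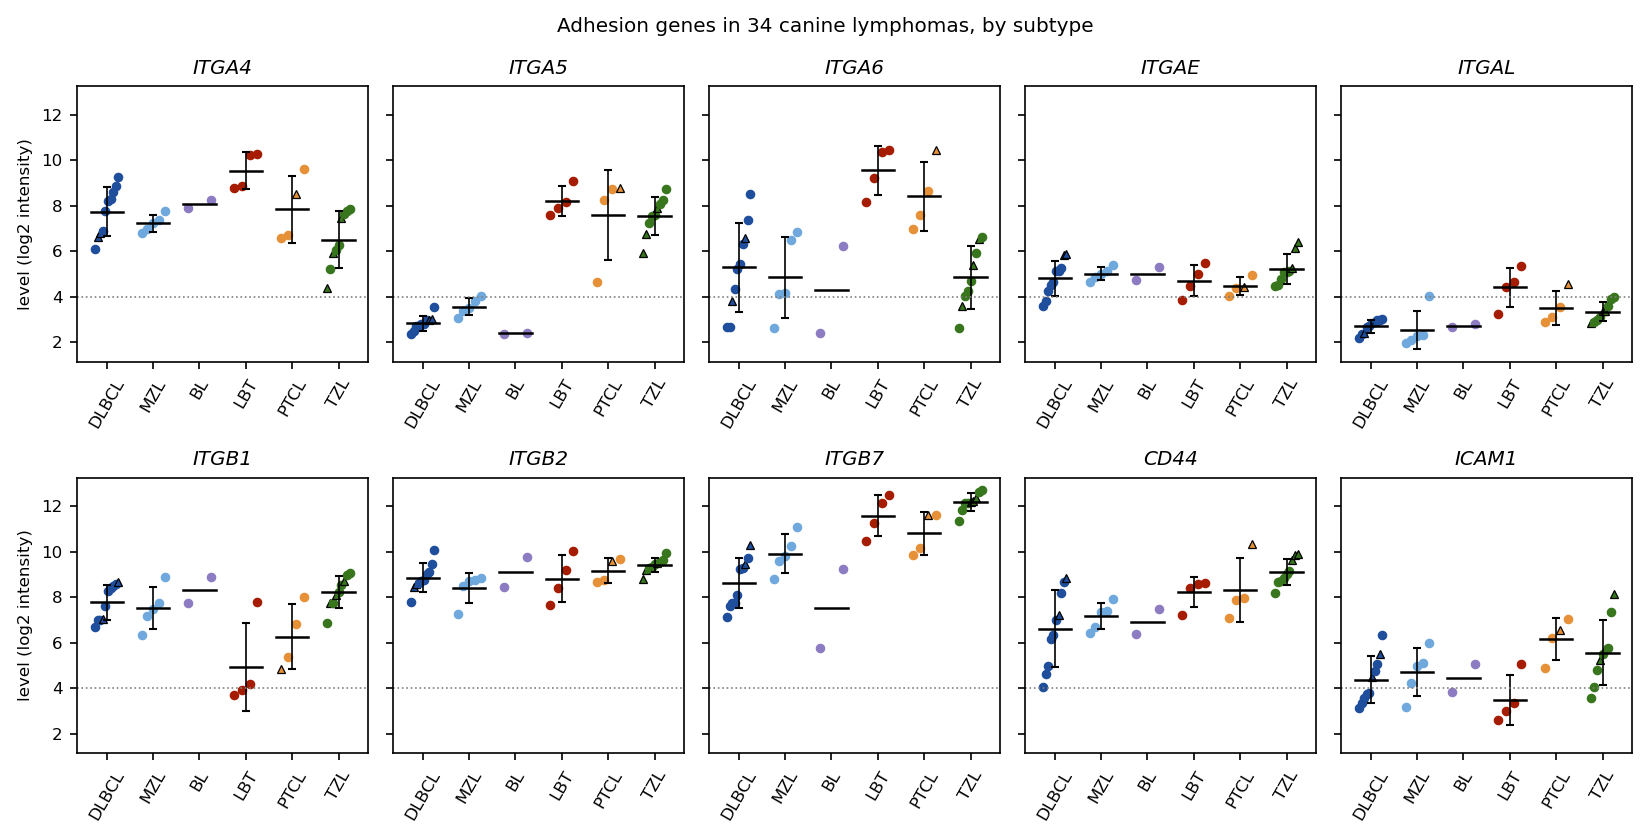
Level of each adhesion gene (log2 intensity, vertical axis) in each of 34 dogs, by subtype (horizontal axis). Points are dogs, triangles with a black edge are dogs on the 6 arrays with a high actin 3' control, horizontal bars are means with SD (no SD for the 2 BL dogs), and the dotted line is the minimum of 4; the axes share a scale for convenience, and levels of different genes are not comparable. ITGA5 is at 4.03 or less in every B tumour and at 4.68 or more in every T tumour, while ITGB1 is low in 3 LBT dogs and ITGA6 lies above all TZL dogs in every LBT and PTCL dog.

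ITGA5, the alpha subunit of the classical fibronectin receptor, gave the sharpest division between the phenotypes. In DLBCL its level ran from 2.38 to 3.58 with a median of 2.81, and in MZL the dogs stood at 3.09, 3.84, 3.50, 3.40 and 4.03. The 2 BL dogs were at 2.43 and 2.36. Only 1 of the 17 B tumours, an MZL, reached the minimum level of 4. The LBT dogs stood at 7.89, 9.12, 7.62 and 8.19, the PTCL dogs at 8.73, 8.27, 8.79 and 4.68, and the TZL dogs ran from 5.92 to 8.74 with a median of 7.62. All T tumours lay above all B tumours. Phenotypes that did not overlap, in either direction, were found for 0.853% of the genes tested. The mean was 3.01 ± 0.51 (SD, n = 17) in B and 7.73 ± 1.11 (SD, n = 17) in T tumours, a difference of -4.72 (SE 0.29, limma adjusted p = 1.06e-14). Since 16 of the 17 B tumours lay below the minimum, levels below 4 were also set to 4, which made B tumours at least 13.3-fold lower. ITGA5 passed the filter on low values only through T tumours, so a difference was built into the choice. Its calls between B and T tumours or subtypes, and its rank below, are therefore a description.

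Subtype accounted for 90.5% of the variance of ITGA5 over the 34 dogs, against a median of 38.6% and an upper quartile of 55.1% over all genes tested. By the F test it ranked 15 of 7500 genes. Within each phenotype, however, the subtypes were close. DLBCL was below MZL by 0.73 (95% interval of the difference -1.64 to 0.19, adjusted p = 0.525), with all DLBCL dogs and 4 of 5 MZL dogs under the minimum. PTCL and TZL differed by 0.05 (interval -0.96 to 1.06, adjusted p = 0.963) and LBT and TZL by 0.64 (interval -0.37 to 1.64, adjusted p = 0.351). The gap between the low-grade subtypes was -4.00 (SE 0.46, adjusted p = 1.86e-07) and the DLBCL to LBT gap was -5.36 (SE 0.49, adjusted p = 1.09e-09).

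The T tumour nearest to the B tumours was PTCL replicate 4, at 4.68, the PTCL dog of intermediate grade. It also had the lowest summed T-cell markers of the T tumours, 6128, and the highest B-cell markers among them, 4215, and the part of this in its ITGA5 level was not tested. Without this dog the step from PTCL to TZL moved to 1.03. The difference of grade steps is DLBCL minus MZL set against PTCL minus TZL. No direction was read from it for ITGA5, since its DLBCL minus MZL part lay almost wholly below the minimum, and with levels below 4 set to 4 that part was -0.0060 and the difference of grade steps -0.055 (adjusted p = 0.986).

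ITGB7, the beta subunit shared by the gut-homing and the E-cadherin-binding integrins, was also higher in T tumours. The TZL dogs formed a narrow group from 11.37 to 12.72 with a median of 12.20. LBT dogs stood at 11.26, 12.17, 10.47 and 12.49, and PTCL dogs at 11.63, 9.85, 11.62 and 10.18. Among B tumours the MZL dogs stood at 8.79, 9.81, 11.11, 10.28 and 9.59, DLBCL ran from 7.14 to 10.32 with a median of 8.67, and the 2 BL dogs were far apart at 9.25 and 5.80. The highest MZL dog thus overlapped LBT and PTCL but not TZL. The phenotype means were 8.88 ± 1.35 (SD, n = 17) in B and 11.73 ± 0.86 (SD, n = 17) in T tumours, a difference of -2.84 (SE 0.38, adjusted p = 2.10e-07), or 7.17-fold lower in B.

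Low-grade MZL stayed below low-grade TZL in ITGB7 by 2.27 (SE 0.52, adjusted p = 0.00146) with no overlap between the dogs, as for 14.1% of the genes tested, and DLBCL lay below TZL by 3.54 (SE 0.43, adjusted p = 1.02e-07). DLBCL was below MZL by 1.27 (95% interval -2.31 to -0.24), which did not pass after adjustment (adjusted p = 0.266), and array weights moved it to -1.54 (adjusted p = 0.0383). PTCL was below TZL by 1.37 (interval -2.50 to -0.23, adjusted p = 0.105), and this passed with the compared groups alone at the same size (adjusted p = 0.0210). With sex, breed and age as covariates it was -1.80 (adjusted p = 0.0476).

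CD44 was also lower in B tumours by its chosen probe set. DLBCL dogs were widely spread, from 4.08 to 8.87 with a median of 6.68, and BL dogs were at 6.39 and 7.48. MZL dogs stood closer together at 6.72, 6.46, 7.38, 7.91 and 7.40. The LBT dogs stood at 8.65, 8.43, 8.60 and 7.24, the PTCL dogs at 7.10, 7.99, 10.37 and 7.87, and TZL ran from 8.21 to 9.89 with a median of 9.04. TZL lay above all MZL dogs, where 14.1% of the genes tested had groups that did not overlap. DLBCL overlapped every T subtype. The phenotype means were 6.82 ± 1.34 in B and 8.72 ± 0.90 in T tumours (SD, n = 17 each), a difference of -1.90 (SE 0.38, adjusted p = 0.000115), or 3.74-fold.

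CD44 was lower in DLBCL than in TZL by 2.50 (SE 0.51, adjusted p = 0.000200) and lower in MZL than in TZL by 1.94 (SE 0.62, adjusted p = 0.0192). Since CD44 was 1.59 higher on the set of 6 arrays, which held 3 TZL and no MZL dogs, the MZL value was also taken without that set, at -1.60 (adjusted p = 0.0519), and with the set as a block, at -1.41 (adjusted p = 0.0582). It also missed the threshold without MZL replicate 1 (-1.83, adjusted p = 0.0517) or MZL replicate 2 (-1.76, adjusted p = 0.0576). The highest PTCL dog, at 10.37, was the PTCL dog of that set, and 1 of its 2 DLBCL dogs was the highest DLBCL dog.

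ITGA6, which forms a laminin receptor with ITGB1, divided the T tumours rather than the phenotypes. The LBT dogs stood at 10.36, 9.23, 10.46 and 8.18 and the PTCL dogs at 6.97, 7.59, 10.46 and 8.64. TZL ran from 2.63 to 6.65 with a median of 4.70, and 7 of its 9 dogs reached the minimum. DLBCL ran from 2.66 to 8.55 with a median of 5.33, MZL dogs stood at 6.85, 4.18, 6.52, 4.12 and 2.66, and BL dogs at 6.23 and 2.42. No LBT or PTCL dog overlapped TZL, whereas TZL lay inside the range of the B tumours.

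LBT exceeded TZL in ITGA6 by 4.69 (SE 0.97, adjusted p = 0.000472), or 22.5-fold with levels below 4 set to 4. PTCL exceeded the same TZL dogs by 3.55 (SE 0.97, adjusted p = 0.0128). Groups that did not overlap were found for 16.2% of the genes tested in the first comparison and 6.88% in the second. LBT and PTCL differed by 1.14 (95% interval -1.19 to 3.47, adjusted p = 0.757). The PTCL value rested in part on PTCL replicate 3, the PTCL dog of the array set: without it the difference was 2.87 (adjusted p = 0.0844), and without all 6 arrays 3.03 (adjusted p = 0.111). Array weights gave 3.04 (adjusted p = 0.0596), and covariates for sex, breed and age 2.35 (adjusted p = 0.0951).

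DLBCL lay below LBT in ITGA6 by 4.25 (SE 0.96, adjusted p = 0.000894) and below PTCL by 3.11 (SE 0.96, adjusted p = 0.0195), the second again lost without PTCL replicate 3 (-2.43, adjusted p = 0.116). MZL and TZL had the same mean, with a difference of -0.0028 (95% interval -1.84 to 1.83). The difference between phenotypes varied with the dogs compared. It was -1.75 over all dogs (SE 0.73, adjusted p = 0.0483) and -3.89 over the high-grade dogs (adjusted p = 0.000863), and it remained called when 14 of the 34 dogs were left out in turn but not for the other 20, with values from -2.01 to -1.52. It was called in 7 of 16 other settings.

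ITGB1, the common beta subunit that pairs with ITGA4, ITGA5 and ITGA6, ran the other way among T tumours. LBT dogs stood at 7.82, 3.73, 4.20 and 3.95, so that 3 of 4 lay at or near the minimum. PTCL dogs stood at 6.82, 5.40, 4.85 and 8.01, and TZL ran from 6.90 to 9.07 with a median of 8.23. Among B tumours, DLBCL ran from 6.69 to 8.66 with a median of 7.94, MZL dogs stood at 7.50, 8.90, 6.37, 7.18 and 7.77, and BL dogs at 7.75 and 8.90. The 3 low LBT dogs and 2 of the PTCL dogs were the lowest of the 34, and LBT replicate 1 lay among the TZL dogs.

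LBT was below TZL in ITGB1 by 3.31 (SE 0.61, adjusted p = 0.000119), or 9.36-fold with levels below 4 set to 4, and below DLBCL by 2.86 (SE 0.60, adjusted p = 0.000410). The LBT to TZL difference was called when each of the 34 dogs was left out and in all 14 other settings, between -4.33 and -2.16, the last with the mean of its probe sets. PTCL was below TZL by 1.96 (SE 0.61, adjusted p = 0.0280). This second difference missed the threshold without PTCL replicate 2 (-1.68, adjusted p = 0.131), without PTCL replicate 3 (-1.49, adjusted p = 0.154), without the set of 6 arrays (-1.51, adjusted p = 0.219) and with array weights (-1.64, adjusted p = 0.0846).

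Between phenotypes ITGB1 was 0.78 higher in B tumours over all dogs (95% interval -0.17 to 1.74, adjusted p = 0.174). Among high-grade dogs alone it was 2.62 higher in B tumours (adjusted p = 0.000400), among low-grade dogs 0.69 lower (adjusted p = 0.204), and 1.41 higher when each subtype counted equally (adjusted p = 0.00532). LBT replicate 1, the LBT dog with high ITGB1, had the lowest B-cell sum of the 34 dogs, 39.5, and a macrophage sum of 170, within the LBT range.

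**Figure D2:**
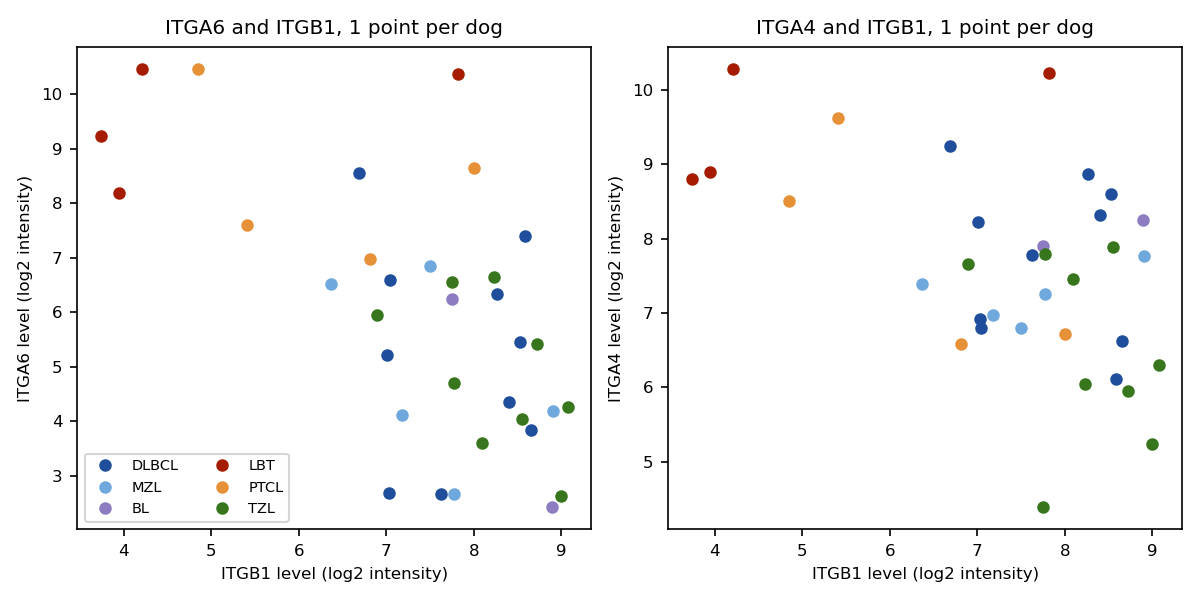
Levels of ITGA6 (left) and ITGA4 (right) against ITGB1 in each of 34 dogs (log2 intensity on all axes), with 1 point per dog coloured by subtype. The LBT dogs have ITGA6 levels of 8.18 or more and ITGA4 levels of 8.80 or more, which some PTCL and DLBCL dogs also reach; 3 LBT dogs lie at ITGB1 levels of 3.73 to 4.20 and 1 at 7.82, and the TZL dogs lie at the right, with ITGB1 between 6.90 and 9.07.

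ITGA4, the alpha subunit of receptors for VCAM1 and for the gut addressin, was highest in LBT. The LBT dogs stood at 10.22, 8.80, 10.28 and 8.89, and all lay above the TZL dogs, which ran from 4.39 to 7.89 with a median of 6.30. Groups that did not overlap were found for 16.2% of the genes tested in LBT against TZL. PTCL dogs were split, at 6.59, 9.62, 8.51 and 6.72. DLBCL ran from 6.11 to 9.25 with a median of 8.01, MZL dogs stood at 6.80, 7.77, 7.39, 6.97 and 7.26, and BL dogs at 7.90 and 8.25. LBT exceeded TZL by 3.03 (SE 0.62, adjusted p = 0.000401), or 8.14-fold, and this was called when each dog was left out and in all 14 other settings, between 2.53 and 3.28.

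DLBCL lay between these, 1.80 below LBT (SE 0.61, adjusted p = 0.0214) and 1.22 above TZL (SE 0.47, adjusted p = 0.0328). The gap to LBT missed the threshold without LBT replicate 1 (-1.58, adjusted p = 0.0798) or LBT replicate 3 (-1.56, adjusted p = 0.0846), and the gap to TZL missed it when any of 9 single dogs was left out, most of all TZL replicate 2 (0.96, adjusted p = 0.0858). Golden Retrievers alone gave -1.41 for the first (adjusted p = 0.0919) and 1.12 for the second (adjusted p = 0.0575). B and T tumours had nearly equal means, 7.64 ± 0.88 and 7.55 ± 1.71 (SD, n = 17 each), a difference of 0.09 (SE 0.45, adjusted p = 0.893). LBT and PTCL differed by 1.69 (interval 0.21 to 3.17, adjusted p = 0.313).

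ITGAL, the alpha subunit that binds ICAM1, was dim throughout. Only 6 of the 34 dogs reached the minimum, of which 3 were LBT dogs, and the LBT dogs stood at 5.35, 4.43, 3.26 and 4.65. PTCL dogs stood at 3.10, 3.55, 4.55 and 2.89, TZL ran from 2.86 to 4.01 with a median of 3.38, and DLBCL from 2.20 to 3.01 with a median of 2.80. MZL dogs stood at 2.12, 4.04, 2.28, 1.96 and 2.34, and BL dogs at 2.81 and 2.68. The difference between B and T tumours was -0.98 (SE 0.21, adjusted p = 0.000295), but it shrank to -0.17 (adjusted p = 0.147) with levels below 4 set to 4. The minimum was reached in 5 of 17 T and 1 of 17 B tumours. ITGAL thus passed the filter on low values only through T tumours, and its call between phenotypes is a description. Of the 6 dogs at the minimum 3 were LBT, so too few remained without LBT to pass the filter. Its calls for LBT are therefore a description too. LBT exceeded TZL by 1.07 (SE 0.34, adjusted p = 0.0160), by 0.60 with levels below 4 set to 4 (adjusted p = 0.00149), by 0.76 without LBT replicate 1 (adjusted p = 0.124), by 0.77 among Golden Retrievers alone (adjusted p = 0.162) and by 0.91 with array weights (adjusted p = 0.0508).

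ITGAE, the partner of ITGB7 for E-cadherin, showed no called difference in the comparisons as fitted without covariates. With sex, breed and age as covariates it was lower in PTCL than in TZL, at -1.22 (adjusted p = 0.0290). All 34 dogs lay between 3.62 and 6.41, and the subtype means ran from 4.47 in PTCL to 5.22 in TZL (F adjusted p = 0.488). The phenotypes differed by -0.02 (95% interval -0.46 to 0.42). The largest spread was in DLBCL, from 3.62 to 5.89, and ITGAE was higher by 0.98 on the set of 6 arrays. The other 2 probe sets of ITGAE reached the minimum in no dog.

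ITGB2, the partner of ITGAL found on leukocytes in general, was bright and even. DLBCL ran from 7.78 to 10.08 with a median of 8.76 and TZL from 8.80 to 9.97 with a median of 9.49. LBT dogs stood at 7.66, 9.22, 8.40 and 10.02, PTCL dogs at 8.75, 8.69, 9.59 and 9.70, MZL dogs at 7.26, 8.71, 8.84, 8.78 and 8.49, and BL dogs at 8.44 and 9.79. The F test over the subtypes was not called (adjusted p = 0.148), but it was with array weights (adjusted p = 0.0253). The phenotypes differed by -0.46 (95% interval -0.90 to -0.02, adjusted p = 0.0767). This was called with array weights (-0.70, adjusted p = 0.00163), over the low-grade dogs (-1.01, adjusted p = 0.00693) and when LBT replicate 1, LBT replicate 3, DLBCL replicate 8 or BL replicate 2 was left out (-0.56 to -0.51, adjusted p from 0.0208 to 0.0499). Over the high-grade dogs it was 0.0079 (adjusted p = 0.988). MZL lay below TZL by 1.01 (SE 0.34, adjusted p = 0.0267). That difference was -0.72 without MZL replicate 1 (adjusted p = 0.137), and the other probe set that all 34 dogs expressed above the minimum gave -0.14 (adjusted p = 0.897). The mean of the probe sets gave -0.39 (adjusted p = 0.355).

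ICAM1, the ligand of ITGAL with ITGB2, lay near the minimum in many dogs, and 23 of 34 reached it. LBT dogs stood at 2.60, 3.36, 2.99 and 5.08 and PTCL dogs at 6.23, 4.89, 6.55 and 7.05. TZL ran from 3.59 to 8.13 with a median of 5.52, DLBCL from 3.16 to 6.37 with a median of 4.15, MZL dogs stood at 5.14, 5.00, 3.20, 6.00 and 4.25, and BL dogs at 3.86 and 5.10. The F test over the subtypes was called (adjusted p = 0.0264). Settings in which it missed the threshold included array weights (adjusted p = 0.0521) and levels below 4 set to 4 (adjusted p = 0.0596). Others were covariates for sex, breed and age (adjusted p = 0.0824) and leaving out the array set (adjusted p = 0.0984). LBT was below TZL by 2.07 (SE 0.67, adjusted p = 0.0189) and below PTCL by 2.67 (95% interval -4.28 to -1.07, adjusted p = 0.112). The first was called in 9 of 14 other settings, and with levels below 4 set to 4 it was -1.35 (adjusted p = 0.0779). It was -1.77 without LBT replicate 1 (adjusted p = 0.0855) and -1.90 without LBT replicate 3 (adjusted p = 0.0632), and the second was -3.20 without LBT replicate 4 (adjusted p = 0.0458) and -3.10 without PTCL replicate 2 (adjusted p = 0.0420).

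**Figure D3:**
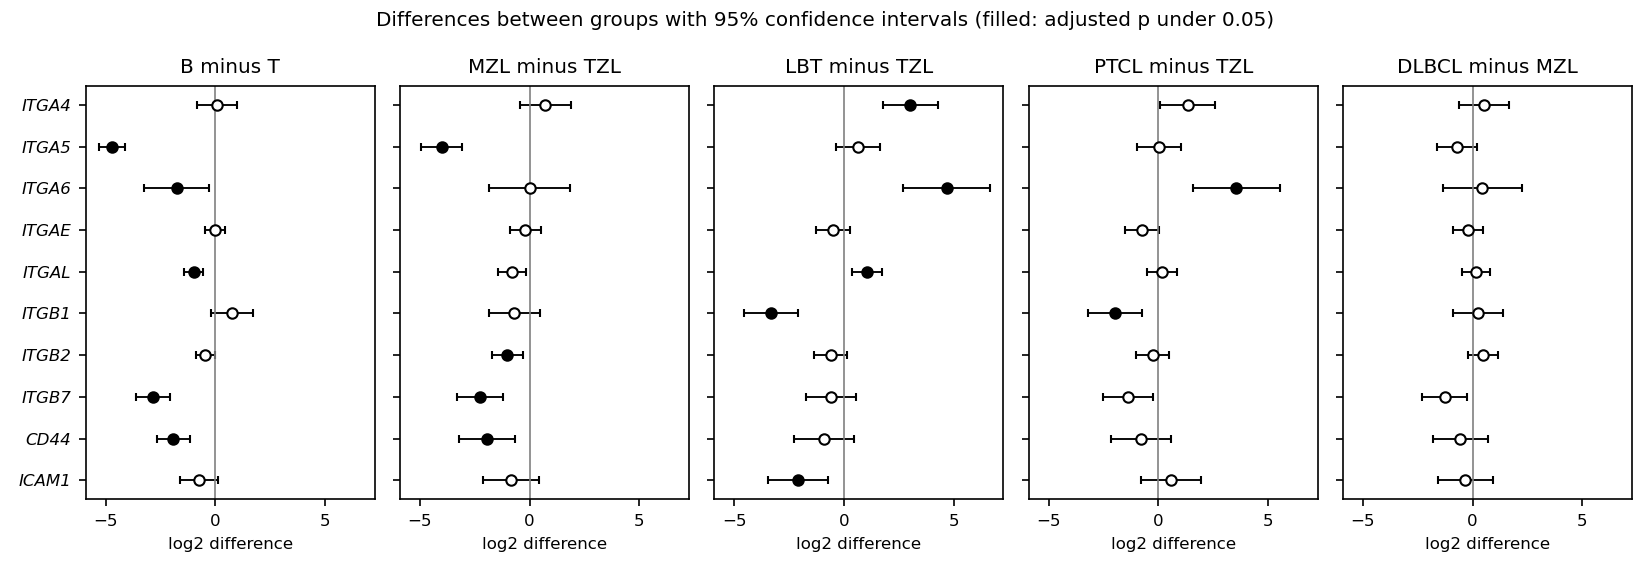
Differences between groups (log2, horizontal axis) for the 10 adhesion genes (vertical axis) in 5 comparisons, with 95% confidence intervals and filled points for an adjusted p under 0.05 (limma, over 7500 genes). In B minus T and MZL minus TZL all filled points lie left of 0, in LBT minus TZL 3 lie right and 2 left, in PTCL minus TZL 1 lies on each side, and in DLBCL minus MZL no point is filled.

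Within B tumours none of the genes separated DLBCL from MZL by limma, where 0% of all genes tested were called. At an unadjusted p under 0.05, 977 of the 7500 genes and 1 of the 10 adhesion genes (ITGB7) passed. The wide intervals for ITGA6 (-1.36 to 2.25) and CD44 (-1.80 to 0.69) leave differences of more than 2-fold possible. LBT and PTCL were not separated by any of the genes either, where 0.680% of all genes were called, and 3 passed at an unadjusted p under 0.05 (ITGA4, ITGAL and ICAM1). The difference of grade steps was called for none, where 1.96% of all genes were called, and 2 passed unadjusted, ITGA6 with -3.11 (adjusted p = 0.256) and ITGB1 with 2.20 (adjusted p = 0.182).

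In the order of subtype means, most neighbours did not differ beyond their spread. Of the 5 steps in the order of each gene, only 1 step was called for ITGA5, from TZL down to MZL (adjusted p = 1.86e-07), and 1 for ITGA6, from PTCL down to DLBCL (adjusted p = 0.0195). For the other 8 genes no step between neighbours was called.

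Other probe sets of the same genes gave a check within the arrays, adjusted over the 18030 probe sets past the filter. All 3 probe sets of ITGB7 were lower in B tumours, by 2.84, 3.73 and 4.23, and their levels correlated with the chosen one at r of 0.985 and 0.977 over the 34 dogs, a description over dogs of 6 subtypes. The second probe set of ITGA5 was lower in B tumours by 2.27 (adjusted p = 2.13e-08). All 4 probe sets of ITGA6 were higher in LBT than in TZL, by 4.69, 4.73, 3.78 and 2.19, each called. The dimmest of them, at the minimum in 5 dogs, was not called for PTCL against TZL (1.17, adjusted p = 0.0609) or DLBCL against PTCL (-1.07, adjusted p = 0.0638). The dim second probe set of ITGB1, which reached the minimum in 4 dogs, was lower in LBT than in TZL by 1.01 (adjusted p = 0.0101), but it was not called for PTCL against TZL (-0.82, adjusted p = 0.0655) or DLBCL against LBT (0.56, adjusted p = 0.138). For CD44, 1 further probe set gave -2.35 between phenotypes (adjusted p = 1.79e-05) and another, at the minimum in 9 dogs, -0.82 (adjusted p = 0.0621). The latter gave -0.59 for DLBCL against TZL (adjusted p = 0.361) and -0.65 for MZL against TZL (adjusted p = 0.464), neither called.

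**Figure D4:**
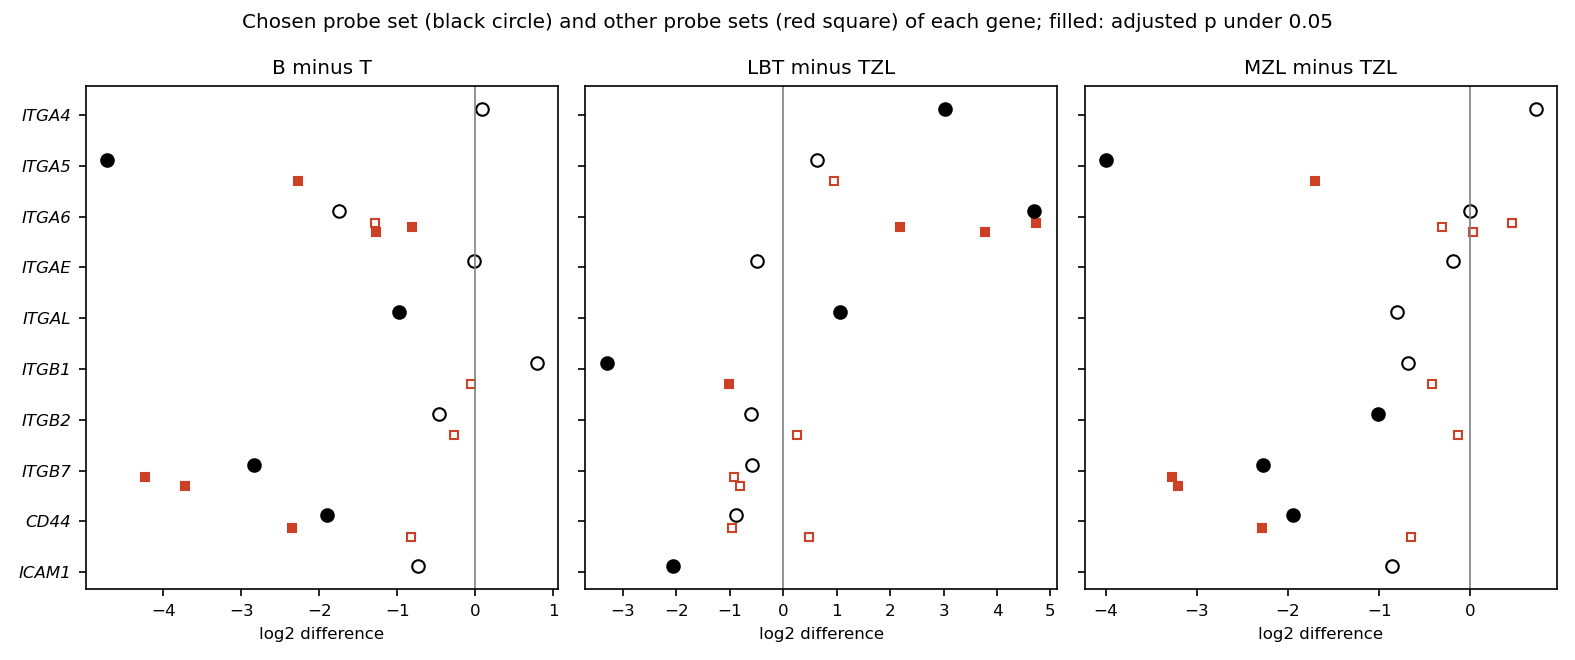
Differences (log2, horizontal axis) from the chosen probe set of each gene (black circles) and from its other probe sets past the filter (red squares) in 3 comparisons, filled where the adjusted p over 18030 probe sets was under 0.05. The squares of ITGB7, ITGA5 and ITGA6 lie on the same side of 0 as the circles in B minus T, and the chosen ITGA6 probe set, called over genes, is open here with an adjusted p of 0.0501.

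Subunits known to pair were compared dog by dog within TZL (n = 9) and DLBCL (n = 10), the only subtypes large enough. None of 12 correlations passed after adjustment, with a smallest adjusted permutation p of 0.290. The strongest was between ITGA4 and ITGB7 in DLBCL, negative at r = -0.68 (Spearman rho = -0.68, permutation p = 0.0351 and 0.0341, adjusted p = 0.290 and 0.230). It was -0.56 without the 2 dogs farthest from the median of ITGA4 (permutation p = 0.152) and -0.56 without the 2 dogs of the array set (permutation p = 0.148). In TZL, ITGA4 with ITGB7 went from -0.55 to -0.78 without the 2 farthest dogs and -0.81 without the array set. ITGA4 with ITGB1 in TZL went from -0.32 to -0.81 without the 2 farthest dogs (permutation p = 0.0224, adjusted p = 0.215). ITGAL and ITGB2 gave r = 0.62 in DLBCL (rho = 0.62, permutation p = 0.0558 and 0.0603) and 0.57 in TZL (rho = 0.55, exact permutation p = 0.103 and 0.133), with adjusted p of 0.290 for r in both and of 0.230 and 0.266 for rho. Without the 2 extreme dogs they were 0.55 and 0.69. ITGAL lay below the minimum in all DLBCL dogs, and only 1 of the 9 TZL dogs reached it.

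For the 3 genes whose subtype means varied most, the genes with the most similar pattern over the 34 dogs were named, as a description in which dogs share subtype and tissue. ITGA5 was followed most closely by CD28, a costimulatory receptor of T cells (r = 0.960), INPP4B, a phosphoinositide phosphatase (r = 0.944), and CD247, the zeta chain of the T-cell receptor complex (r = 0.931). Within subtypes these fell to 0.567, 0.656 and 0.424. ITGB7 was followed by FAM89B (r = 0.931), the T-cell kinase LCK (r = 0.925) and the T-cell receptor chain CD3E (r = 0.913), and within subtypes these remained at 0.766, 0.736 and 0.780. ITGA6 had looser companions, namely the elastic fibre protein gene FBLN5 (r = 0.773), the gluconeogenic enzyme gene FBP1 (r = 0.771) and the histone gene H3-3A (r = 0.760). Within subtypes these were 0.630, 0.337 and 0.496. FBP1 had means of 7.68 in LBT and 7.25 in PTCL against 2.44 to 2.58 in the other subtypes.

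Of 18 other integrin subunits, 4 passed the filter on low values. Of these, 2 were lower in B than in T tumours and in MZL than in TZL (ITGA1 and ITGA2), 1 was lower in LBT and in PTCL than in TZL (ITGA1), and none was higher. Of all genes, 22.3% were called lower in B than in T tumours and 12.3% in MZL than in TZL. For LBT and PTCL against TZL the shares called lower were 12.4% and 6.07%. ITGA1 and ITGA2, alpha subunits of collagen receptors, passed the filter only through T tumours, so that a difference was built into the choice and their calls are a description. ITGA1 reached the minimum in 6 of 9 TZL dogs and in no other dog, and with levels below 4 in the dimmer group set to 4 it was at least 1.38-fold lower in LBT, PTCL and MZL than in TZL. ITGA2 reached it in 8 of 17 T tumours, 6 of them TZL, and in no B tumour, and by the same bound it was at least 1.10-fold lower in B tumours. ITGAX, found on dendritic cells and macrophages, reached the minimum in all 4 PTCL dogs and in no LBT dog. By that bound it was at least 4.38-fold lower in LBT than in PTCL (adjusted p = 0.0321). It was 1 of 4 called there, where 0.680% of all genes were called. This call was lost with the compared groups only. ITGAV, the vitronectin receptor subunit, was called in none of the comparisons.

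Of 14 other adhesion ligands, 6 were tested. VCAM1, the endothelial ligand of ITGA4 with ITGB1, was lower in B than in T tumours by 1.52 (SE 0.51, adjusted p = 0.0147). It was the only 1 of the 6 called there, where 46.5% of all genes were called and 22.3% were called lower. SPP1 (osteopontin) reached the minimum in 3 of 4 PTCL dogs and in no TZL dog, and it was at least 13.7-fold higher in PTCL by the same bound (adjusted p = 0.00222). FN1 (fibronectin) was also higher in PTCL than in TZL, where 1 of 9 dogs reached the minimum (adjusted p = 0.0304). SPP1 and FN1 were the 2 of 6 called in that comparison, where 13.7% of all genes were called. The laminin chain LAMA4 was lower in LBT, with no dog at the minimum, than in TZL, with 4 of 9 (adjusted p = 0.0492). It reached the minimum in 7 dogs and passed the filter only with the TZL dogs, so its call is a description. It was 1 of 6 called there, where 30.1% of all genes were called. The TZL mean, 3.92, itself lay below the minimum, so the same bound left no measured difference. The macrophage markers CD14 and CD68 were also higher in PTCL than in TZL, 2 of 9 tested, with summed macrophage intensities of 277 to 1773 against 59.9 to 2743. The endothelial marker KDR was higher as well, 1 of 2 tested, with summed endothelial intensities of 160 to 898 against 43.8 to 304. None of 4 fibroblast markers tested was called. Of all genes, 13.7% were called in PTCL against TZL. In LBT against TZL, where 30.1% of all genes were called, CD14 was also higher and MARCO lower, 2 of 9 macrophage markers tested. The median macrophage sum was 177 in LBT and 796 in TZL. The part of macrophages, endothelium and fibroblasts in the SPP1 and FN1 values was not tested.

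Of 26 genes that switch integrins on or tie them to the cytoskeleton, 21 were tested. Between phenotypes 9 were called, where 46.5% of all genes were called, with RAP1A and SKAP2 higher and TLN1, RAP1B, SKAP1, FYB1, PTK2, ILK and FLNA lower in B tumours. PTK2 reached the minimum in 1 of 17 B and 9 of 17 T tumours. It passed the filter on low values only through T tumours, so its call is a description. The list's median difference was -0.35, against 0.03 over all genes. FYB1, an adaptor on the T-cell receptor route to integrins, was lower in B by 2.51 (SE 0.25, adjusted p = 9.78e-10), the small GTPase gene RAP1B by 1.21 (SE 0.13, adjusted p = 2.75e-09) and the actin cross-linker FLNA by 2.48 (SE 0.33, adjusted p = 2.27e-07). Between low-grade tumours 7 of the 21 were called, 1 higher and 6 lower in MZL, where 27.5% of all genes were called. In LBT against TZL 9 were called, 3 higher and 6 lower, where 30.1% of all genes were called. In PTCL against TZL 5 were called, 1 higher and 4 lower, where 13.7% of all genes were called.

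PTK2, the focal adhesion kinase gene, had its highest subtype mean in LBT, at 7.21, followed by 5.21 in PTCL and 3.58 in TZL, with 2.52 to 2.93 in the B subtypes. Only 2 of 9 TZL dogs reached the minimum, against all 4 LBT and 3 of 4 PTCL dogs. Since PTK2 passed the filter through T tumours, mostly LBT and PTCL, its calls here are a description. With TZL levels below 4 set to 4 it exceeded TZL at least 8.75-fold in LBT (adjusted p = 5.93e-06 without that step) and at least 2.19-fold in PTCL (adjusted p = 0.0351). FLNA went the other way, lower than in TZL by 1.39 in LBT (SE 0.45, adjusted p = 0.0192) and by 1.74 in PTCL (SE 0.45, adjusted p = 0.00887). Both comparisons share the TZL dogs.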

How the data were processed

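The deposited values are linear intensities, 1 per probe set and array, which the authors made with GCRMA, per the submitters' processing notes (version not given in the sources used here). Intensities were floored at 1 and put on the log2 scale here. Gene names came from the platform annotation, with 29254 probe sets of 1 symbol, 439 of several and 13231 of none, and 27680 of the first were found in the gene table by identifier. The probe set with the highest mean stood for its gene, and genes that reached log2 4 in 4 or more of the 34 dogs were tested. B against T used a fit with 2 means and all other comparisons a fit with 6 subtype means (limma 3.58.1 in R 4.3.3, lmFit and eBayes, two-sided), with Benjamini-Hochberg adjustment over 7500 genes and a threshold of 0.05. The dogs were separate cases, and the number of arrays limits the precision. Correlations used scipy 1.17.1 with exact permutations for 9 dogs and 1e+05 resamples for 10. The members and lists were chosen with earlier results of these data known. The text names all 10 members, the 4 genes of each other list with the smallest F p-value, and the 3 genes most correlated with each of the 3 members of most variable subtype means; lists of called genes and of markers name others. Lists for T cells, B cells, macrophages, neutrophils, fibroblasts, endothelium, cytotoxic cells and plasma cells were summed over linear intensities. Alternatives covered filters, normalization, weights, probe sets, covariates, breed, the array set and leaving out each dog. The steps were tested on simulated data.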

Additional observations from a re-analysis of the deposited data

Results flagged for a closer look

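Among 50 groups of 4 to 10 dogs checked, 5 had a dog far from the others by Dixon's ratio, and chance alone flags about 1 in 20 groups. PTCL replicate 4 was low in ITGA5, at 4.68 against 8.27 for the next dog. LBT replicate 1 was high in ITGB1, at 7.82 against 4.20. MZL replicate 2 was high in ITGAL, at 4.04 against 2.34. MZL replicate 1 was low in ITGB2, at 7.26 against 8.49. LBT replicate 4 was low in CD44, at 7.24 against 8.43.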

How the results depend on the processing

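No paired analysis was possible because each group held different dogs. The number of the 10 genes called moved past 1.5 times as follows. For B against T, 5 became 3 with levels below the minimum set to it, since ITGA6 and ITGAL were lost. For LBT against TZL, 5 became 3 with array weights and 3 with Golden Retrievers only, and ran from 3 (without LBT replicate 1) to 6 over the dogs left out. For PTCL against TZL, 2 became 0 with array weights and 0 without the array set, and ran from 0 (without PTCL replicate 3; 1 without PTCL replicate 2) to 2. For MZL against TZL the range was 2 (without MZL replicate 1) to 5, for B against T 4 to 6, and for any subtype difference 7 to 8. For DLBCL against MZL, 0 became 1 with array weights. For the difference of grade steps, 0 became 1 (ITGA5, whose DLBCL and MZL levels lie near or below the minimum) without the dog of intermediate grade (range 0 to 1). For DLBCL against PTCL, 3 became 6 with the mean of probe sets, 5 with the array set as a block and 5 without the dog of intermediate grade, with a range of 2 to 5 over the dogs left out (5 without DLBCL replicate 3 or PTCL replicate 4). For DLBCL against TZL, 5 became 3 with no filter and 3 without the array set, with a range of 3 (without DLBCL replicate 1 or 11 or TZL replicate 2, 6 or 7) to 6. For DLBCL against LBT the range was 5 to 7. For LBT against PTCL the range was 0 to 1 (1 without LBT replicate 4 or PTCL replicate 2). No called difference changed sign. Counts over all genes moved most for DLBCL against MZL (0, but 378 with array weights, 39 with levels below the minimum set to it, 24 without the second array of the repeated case, 19 without the array set, 17 with a filter at log2 6, 13 with the mean of probe sets, 6 with Golden Retrievers only, and 0 to 68 with a dog left out). They moved for LBT against PTCL (51, but 0 with the compared groups only, 4 with covariates, 11 without the dog of intermediate grade, 33 with a filter at log2 6, 82 with the set as a block, 96 with levels set to the minimum, and 11 to 180 with a dog left out), and for grade steps (147, but 42 without the array set, 324 with Golden Retrievers only, with 1 PTCL dog, and 61 to 281). For PTCL against TZL, 1025 became 556 without the array set and 587 without PTCL replicate 2, and for DLBCL against PTCL, 1567 became 874 with Golden Retrievers only, whose 1 PTCL dog is assumed to vary like the other groups, and 988 with the compared groups only. The causes were not tested. Levels below the minimum limit ITGAL, ICAM1 and, in B tumours, ITGA5.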

Other observations

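The dog labelled NBNT entered no comparison. Its levels were 7.05 for ITGA4, 8.48 for ITGA5, 5.91 for ITGA6, 4.73 for ITGAE and 3.51 for ITGAL. They were 9.21 for ITGB1, 9.54 for ITGB2, 12.13 for ITGB7, 8.43 for CD44 and 4.57 for ICAM1. Its ITGA5 level lay above all 17 B tumours, and its ITGB1 level above all 34 other dogs. The summed intensity of the T-cell markers in this dog was 16047, within the range of the TZL dogs, and that of the B-cell markers was 2919.

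Plasma cell markers, JCHAIN and XBP1, were lower in B than in T tumours, 2 of 2 tested, and also lower in LBT and in MZL than in TZL. The shares of all genes called lower in these 3 comparisons were 22.3%, 12.4% and 12.3%. The summed intensities of the 3 genes with a value were 5042 to 14722 in TZL, 1848 to 3280 in LBT and 1457 to 2952 in MZL. Of the cytotoxic and NK markers, 2 of 4 tested, NKG7 and KLRD1, were lower in LBT than in TZL, where 12.4% of all genes were called lower.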
